A study of Mus musculus with 30 samples.

Results

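The sorting nexin (Snx) and vacuolar protein sorting (Vps) genes were examined in mice without myotubularin and in their wild-type (WT) littermates. A gene was a member when its symbol started with Vps or Snx followed by a digit, with pseudogenes left out, which gave 65 members among the 36103 genes of the count table. RNA-seq counts came from 30 libraries of 129Pas male mice at 5 weeks of age, each library being the whole tissue of a mouse. The groups were WT gastrocnemius (4 libraries), Mtm1KO gastrocnemius (4), WT diaphragm (4), Mtm1KO diaphragm (3), WT heart (4), Mtm1KO heart (4), WT liver (3) and Mtm1KO liver (4). Mtm1KO animals carried a knock-out of the X-linked Mtm1 gene (Mtm1-/y), present in all their cells, and WT littermates did not. The mice were the replicates, and since the tissue was taken whole, fewer cells of a type and less RNA per cell cannot be told apart in any value below.

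Myotubularin removes the phosphate at position D3 from the phosphoinositides of endosomes, and its loss causes X-linked myotubular myopathy. Most of the members encode proteins that read or act on those same membranes, while Vps72 is a member by name alone. Sorting nexins bind endosomal phosphoinositides through a PX domain, and those with a BAR domain bend the membrane into tubules. Retromer (Vps35, Vps26 and Vps29) and the related retriever return cargo from endosomes to the cell surface or the trans-Golgi network, ESCRT complexes sort ubiquitinated cargo into intraluminal vesicles, HOPS and CORVET tether endosomes and lysosomes before fusion, GARP and EARP receive endosome-derived carriers, and VPS13 proteins carry lipids between organelles.

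Library totals ran from 24873817 to 44289343 counts, and Mtm1 was lower in Mtm1KO in every tissue with no overlap between genotypes. It fell from 19.5 ± 0.788 to 4.64 ± 0.587 CPM (counts scaled to library size, mean ± SD, n = 4 and 4) in gastrocnemius. In liver its adjusted p was 0.37 by edgeR and 1.3e-06 by DESeq2. The diaphragm libraries stood apart in liver RNA. Albumin ran from 284 to 31876 CPM across the 7 diaphragm libraries and from 2.64 to 56.8 CPM across the 8 gastrocnemius libraries. All 11 macrophage markers rose in Mtm1KO gastrocnemius (summed level 54.2 to 93.7 CPM in WT, 165 to 203 CPM in Mtm1KO). So did 6 of 7 white adipocyte markers (203 to 309 CPM, 320.5 to 482 CPM). Of 6 fibroblast markers 3 rose, with overlapping sums (2911 to 7995 CPM, 3383 to 9872 CPM). Of 4 endothelium markers 2 fell and 0 rose (283 to 383 CPM, 212 to 276 CPM). The 7 skeletal muscle markers summed to between 178477 and 209962 CPM in WT and between 116043 and 125482 CPM in Mtm1KO gastrocnemius, with 5 lower and 2 higher. Libraries were scaled by the trimmed mean of M-values (TMM), which sets changes against the typical gene. Dividing by library totals instead raised the median log2 fold change of all genes in gastrocnemius by 0.33, so every direction below is relative to that typical gene.

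Of the 65 members, 64 passed the low-count filter in gastrocnemius. With Mtm1KO set against WT, 9 rose and 8 fell, taking adjusted p-values below 0.05 from edgeR's quasi-likelihood test. Log2 fold changes are given with their standard error (±). The same call was made for 14.1% of all genes tested in the upward and 14.9% in the downward direction, against 14.1% and 12.5% of the members, so the members were called at about the rate of the background. The members that rose were Snx7, Snx10, Vps26c, Vps37c, Snx8, Snx20, Vps37b, Snx2 and Vps16, and those that fell were Vps36, Vps41, Vps13d, Vps4a, Vps72, Snx19, Vps26b and Vps50. Only Snx20 passed an absolute log2 fold change of 1, and the median absolute log2 fold change was 0.13 over the members and 0.25 over all genes. DESeq2 called 10 members higher and 8 lower, where it called 12.5% and 13.4% of all genes. WT and Mtm1KO libraries did not overlap for 10 members that were higher and 8 that were lower, shares to be read against 14.4% and 16.2% of all genes. At an unadjusted p under 0.05, 22 members and 41.6% of all genes passed.

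The 9 higher members kept their direction and call when library totals replaced TMM, whereas the 8 lower members did not. On that scale 45 members were higher and 0 lower, and the log2 fold changes of the 8 lay between -0.03 and 0.13. Without WT replicate 2 the counts were 4 higher and 5 lower, 5 members were higher without WT replicate 4, without Mtm1KO replicate 1 they were 5 and 5, and without Mtm1KO replicate 3 4 members were lower. Snx7, Snx10, Vps26c, Vps37c, Vps36, Vps41, Vps13d and Vps4a were called without any 1 of the 8 libraries. In GENCODE M21 coordinates (mm10) these 8 genes are Snx7 (ENSMUSG00000028007, chr3:117781647-117868936), Snx10 (ENSMUSG00000038301, chr6:51523901-51590679), Vps26c (ENSMUSG00000022898, chr16:94497783-94526830), Vps37c (ENSMUSG00000048832, chr19:10688735-10714627), Vps36 (ENSMUSG00000031479, chr8:22192809-22220843), Vps41 (ENSMUSG00000041236, chr13:18717286-18866811), Vps13d (ENSMUSG00000020220, chr4:144972622-145195005) and Vps4a (ENSMUSG00000031913, chr8:107031222-107045755). Each of the other 9 calls was lost without at least 1 library, in 1 of the 8 refits for Snx8, 4 for Vps72, 5 for Snx19, Snx20 and Vps26b, and 6 for Snx2, Vps16, Vps37b and Vps50. With one spread fitted over all 30 libraries, Snx10 was not called (log2 fold change 0.69, adjusted p = 0.1), while the other 7 of the 8 were called in every planned refit that kept all libraries.

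**Figure D1:**
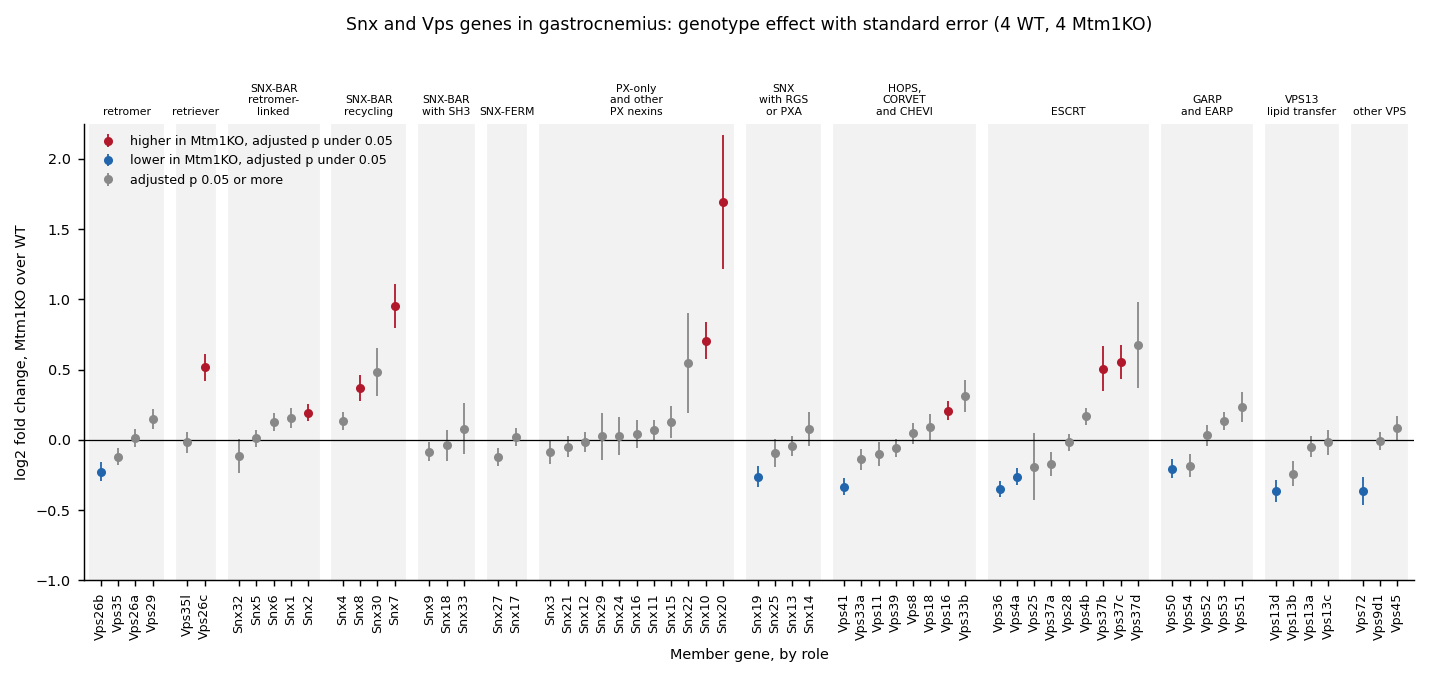
Log2 fold change of Mtm1KO over WT (vertical axis, TMM scaling) with its standard error for the 64 members tested in gastrocnemius, grouped by role. Red points are the 9 members called higher, blue points the 8 called lower and grey points the 47 not called; most members lie within 0.25 of 0, and Snx20 has the widest error bar.

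Of the 4 retromer genes, 1 fell. Vps35, its scaffold, read 94.8, 91.1, 92.3 and 88.9 CPM in the WT and 86.1, 91.7, 79.2 and 80.6 CPM in the Mtm1KO libraries. The WT and Mtm1KO values of Vps35 overlapped, with a log2 fold change of -0.12 ± 0.06 (adjusted p = 0.19). Vps26b, a paralogue of the arrestin-like subunit, read 48.7, 48.8, 50.3 and 52.5 CPM in the WT and 42.9, 40.6, 40.9 and 46.6 CPM in the Mtm1KO libraries. Every Mtm1KO library lay below every WT library for Vps26b, and its log2 fold change was -0.23 ± 0.06 (adjusted p = 0.027). The other paralogue, Vps26a, had a log2 fold change of 0.01 ± 0.07 (adjusted p = 0.91) and Vps29, the small subunit shared with retriever, 0.15 ± 0.07 (adjusted p = 0.14). Snx3, the nexin that recruits retromer for the Wnt carrier Wls, had -0.08 ± 0.08 (adjusted p = 0.47).

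Retriever was represented by Vps26c and Vps35l. Vps26c, its arrestin-like subunit, read 19.4, 18.2, 16.3 and 18.2 CPM in the WT and 29.8, 25.3, 25.3 and 22.5 CPM in the Mtm1KO libraries. The lowest Mtm1KO library exceeded the highest WT library, and the log2 fold change was 0.52 ± 0.10 (adjusted p = 0.0034). Vps35l, the large subunit, had a log2 fold change of -0.02 ± 0.07 (adjusted p = 0.88). The cargo adaptors that hand integrins and other receptors to retriever and retromer were not called: Snx17 had 0.02 ± 0.07 (adjusted p = 0.84), and Snx27, whose PDZ domain binds receptor tails, had -0.12 ± 0.06 (adjusted p = 0.17). Snx27 ranged over 58.2, 59.6, 63.1 and 62.2 CPM in the WT and 56, 60.5, 53.4 and 52.8 CPM in the Mtm1KO libraries, so that the genotypes overlapped. Snx31, the remaining FERM-domain nexin, had 2 counts in WT replicate 1 and none in the other 7 gastrocnemius libraries, and did not pass the filter in any tissue.

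Of the 4 BAR-domain nexins of recycling and trans-Golgi routes, Snx7 and Snx8 rose. Snx7, which pairs with Snx4 on recycling endosomes, read 2.95, 1.87, 2.75 and 2.31 CPM in the WT and 5.13, 4.93, 4.57 and 4.55 CPM in the Mtm1KO libraries. All 4 Mtm1KO libraries lay above all 4 WT libraries, and the log2 fold change was 0.95 ± 0.16 (adjusted p = 0.0019). Snx8, a nexin of the route from endosomes to the trans-Golgi network, read 10.5, 10.9, 12.5 and 13.4 CPM in the WT and 16.5, 15.1, 14.7 and 14.8 CPM in the Mtm1KO libraries. Its genotypes did not overlap either, with a log2 fold change of 0.37 ± 0.09 (adjusted p = 0.015), although it was not called without WT replicate 2. Snx30, the close relative of Snx7, read 3.28, 4.81, 5.84 and 4.25 CPM in the WT and 5.94, 6.53, 7.22 and 5.65 CPM in the Mtm1KO libraries. 1 WT library exceeded the lowest Mtm1KO library, and Snx30 was not called by edgeR (0.48 ± 0.17, adjusted p = 0.061) but was by DESeq2 (adjusted p = 0.045). Snx4 itself had 0.14 ± 0.07 (adjusted p = 0.15).

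Of the 5 nexins linked to retromer that form tubule-coating dimers, 1 rose. Snx2 read 24.4, 24.7, 25.8 and 24.6 CPM in the WT and 28.3, 27.5, 30.2 and 27.5 CPM in the Mtm1KO libraries. The WT libraries spanned little more than 1 CPM and lay below every Mtm1KO library, with a log2 fold change of 0.19 ± 0.06 (adjusted p = 0.041). Its partners had log2 fold changes of 0.16 ± 0.07 (adjusted p = 0.14) for Snx1, 0.01 ± 0.06 (adjusted p = 0.9) for Snx5 and 0.13 ± 0.06 (adjusted p = 0.15) for Snx6. Snx9, which joins a BAR domain to an SH3 domain at sites of endocytosis, had -0.08 ± 0.07 (adjusted p = 0.37), and none of the 3 nexins of that kind was called.

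**Figure D2:**
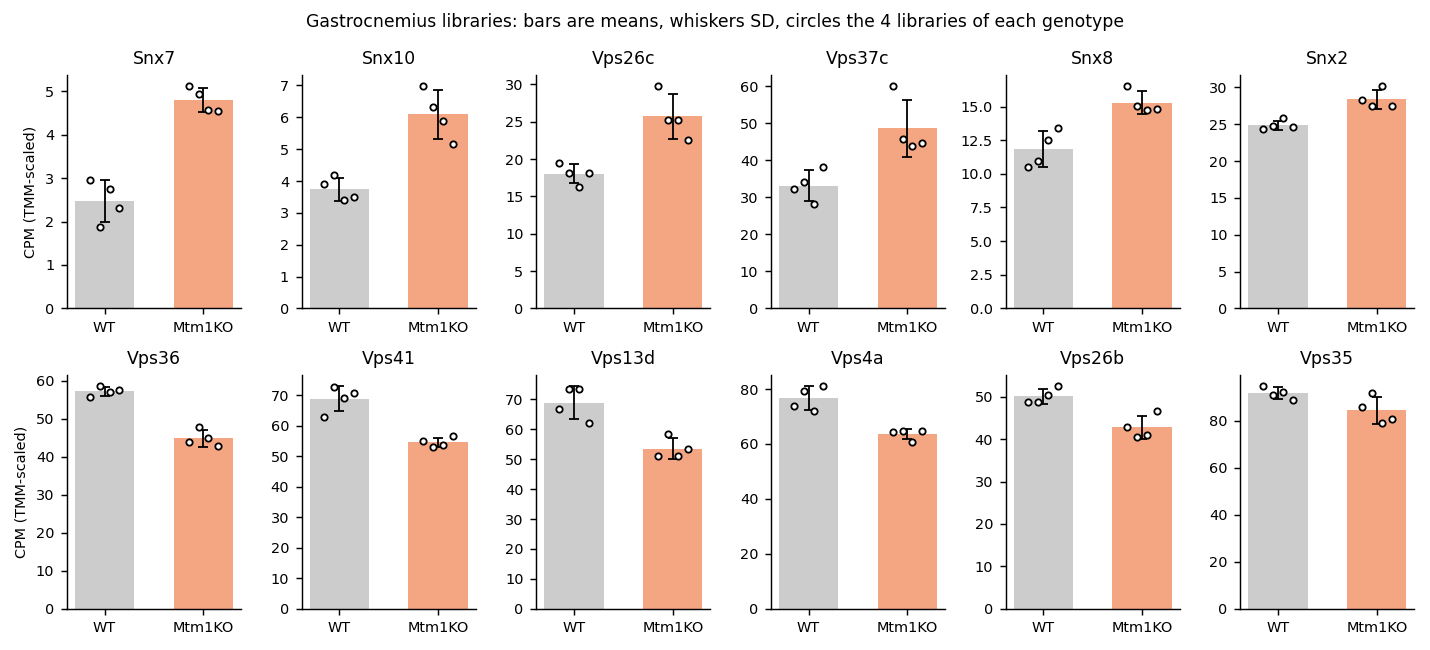
TMM-scaled CPM of 12 members in gastrocnemius (vertical axes, each from 0), with bars for the mean, whiskers for the SD and circles for the 4 libraries of each genotype. The 4 Mtm1KO libraries of Snx7, Snx10, Vps26c, Vps37c, Snx8 and Snx2 all lie above the WT libraries, those of Vps36, Vps41, Vps13d, Vps4a and Vps26b all lie below, and those of Vps35 overlap WT.

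Among the 11 nexins without a BAR, FERM, PXA or RGS domain, 2 rose. Snx10, which acts with the proton pump of endosomes and is best known from bone-resorbing cells, read 3.89, 4.18, 3.41 and 3.49 CPM in the WT and 6.99, 6.32, 5.9 and 5.17 CPM in the Mtm1KO libraries. No Mtm1KO value reached down to a WT value, and the log2 fold change was 0.71 ± 0.13 (adjusted p = 0.0033). Snx20, a nexin of leukocytes that binds the selectin ligand PSGL-1, rested on 4, 1, 9 and 4 counts in WT and 26, 19, 13 and 10 counts in Mtm1KO. These correspond to 0.111, 0.0367, 0.269 and 0.127 CPM in the WT and 0.623, 0.574, 0.36 and 0.269 CPM in the Mtm1KO libraries, where the highest WT library and the lowest Mtm1KO library met, with a log2 fold change of 1.69 ± 0.48 (adjusted p = 0.025) that is imprecise at so few counts. The macrophage marker sum given above rose together with Snx10 and Snx20. Of 7 lymphocyte markers 2 passed the filter and 1 fell, and their summed level went from 55.5 to 77.5 CPM in WT to 5.51 to 8.72 CPM in Mtm1KO. That fall was in Ighm, the IgM heavy chain, from 68.5 ± 9.97 to 6.11 ± 1.45 CPM, a log2 change of -3.48 ± 0.17 (adjusted p = 2.1e-05), and each of the other 6 averaged at most 0.37 CPM in either genotype. The part of these cells in the Snx10 and Snx20 differences was not tested. Among the 4 nexins with a PXA or RGS domain, which sit at contacts of the endoplasmic reticulum, Snx19 fell. It read 51.5, 50.1, 49.4 and 48.8 CPM in the WT and 42.4, 46.6, 37.6 and 39.8 CPM in the Mtm1KO libraries, without overlap, and its log2 fold change was -0.26 ± 0.07 (adjusted p = 0.024). Snx13, the member of that group with the highest level per length, had -0.04 ± 0.07 (adjusted p = 0.66).

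ESCRT genes moved both ways, with 2 of 9 higher and 2 lower. Vps36, the ESCRT-II subunit that binds ubiquitin and phosphoinositides, had the smallest p of any member that fell. It read 55.6, 58.6, 57.1 and 57.5 CPM in the WT and 43.7, 47.8, 44.9 and 42.7 CPM in the Mtm1KO libraries. The groups were well separated, and the log2 fold change was -0.35 ± 0.06 (adjusted p = 0.0021). Vps4a, the ATPase that disassembles ESCRT-III, read 73.9, 79.4, 72 and 81.1 CPM in the WT and 64.3, 64.8, 60.8 and 64.7 CPM in the Mtm1KO libraries. All 4 Mtm1KO libraries lay below the WT libraries, with a log2 fold change of -0.26 ± 0.06 (adjusted p = 0.0099). Its paralogue Vps4b read 23.4, 24.7, 26.1 and 24.3 CPM in the WT and 27.3, 28.4, 27.7 and 27 CPM in the Mtm1KO libraries. The Vps4b libraries did not overlap, yet its log2 fold change of 0.17 ± 0.06 (adjusted p = 0.061) missed the threshold.

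The ESCRT-I subunit Vps37 has 4 paralogues, and 2 of them rose. Vps37c read 32.3, 34.1, 28.1 and 38.1 CPM in the WT and 60.2, 45.7, 43.9 and 44.8 CPM in the Mtm1KO libraries. Mtm1KO replicate 1 stood above the other 3 Mtm1KO libraries, which in turn exceeded every WT library, and the log2 fold change was 0.56 ± 0.12 (adjusted p = 0.0082). Vps37b read 4.48, 4.85, 4.25 and 4.75 CPM in the WT and 8.09, 7.01, 6.12 and 4.76 CPM in the Mtm1KO libraries. The lowest Mtm1KO library fell among the WT values, and the log2 fold change was 0.51 ± 0.16 (adjusted p = 0.037). In GENCODE M21, 42.5% of the exon length of Vps37b is shared with genes on the opposite strand (Hip1r and Gm37939), and the strand setting of the counting is not given in the sources used here, so its level is uncertain. The same limit holds for other members named here, with 28.5% of the exon length of Snx22 shared with Ppib, 13.2% of Snx32 with Cfl1 and 11.9% of Snx17 with Eif2b4 and Zfp513. Vps37a had -0.17 ± 0.08 (adjusted p = 0.15) and Vps37d, at 0.331 ± 0.0799 CPM in WT and 0.528 ± 0.168 CPM in Mtm1KO, 0.68 ± 0.31 (adjusted p = 0.13). The remaining ESCRT-II member, Vps25, shares 67.2% of its exon length with Ramp2 on the same strand, and reads falling in both genes were not counted, so its 0.703 ± 0.0913 CPM in WT and 0.618 ± 0.139 CPM in Mtm1KO understate it by an unknown amount.

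Tethering complexes gave 1 member higher, Vps16, and 1 lower, Vps41, of 8. Vps41, the HOPS subunit that reaches the late endosome and lysosome, read 63.1, 72.8, 69.1 and 70.7 CPM in the WT and 55, 53.2, 53.6 and 56.6 CPM in the Mtm1KO libraries. Every Mtm1KO library was lower, with a log2 fold change of -0.33 ± 0.06 (adjusted p = 0.0036). Vps16, of the core that HOPS and CORVET share, read 20.5, 19, 18.6 and 19.5 CPM in the WT and 22.2, 20.9, 22.7 and 23.6 CPM in the Mtm1KO libraries. It was higher without overlap at a log2 fold change of 0.21 ± 0.07 (adjusted p = 0.042). The other core member Vps18 had 0.09 ± 0.09 (adjusted p = 0.49), Vps33a -0.14 ± 0.07 (adjusted p = 0.19), and Vps33b, of the CHEVI complex, 0.31 ± 0.11 (adjusted p = 0.062). In GARP and EARP, which share 3 subunits, only the EARP subunit Vps50 was called. It read 37.5, 38.4, 43.4 and 39.3 CPM in the WT and 33.6, 34.2, 33 and 36.5 CPM in the Mtm1KO libraries, with a log2 fold change of -0.20 ± 0.07 (adjusted p = 0.047), whereas Vps54, its counterpart in GARP, had -0.18 ± 0.08 (adjusted p = 0.13) and the shared Vps52 0.03 ± 0.07 (adjusted p = 0.76).

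Vps13d, a lipid transfer protein needed for mitochondrial size and clearance, read 66.8, 73.3, 73.5 and 62 CPM in the WT and 51.2, 58.4, 51 and 53.4 CPM in the Mtm1KO libraries. The highest Mtm1KO library was below the lowest WT library, and the log2 fold change was -0.36 ± 0.08 (adjusted p = 0.0064). The other 3 VPS13 genes had log2 fold changes from -0.24 (Vps13b) to -0.02 (Vps13c), with -0.05 ± 0.08 (adjusted p = 0.65) for Vps13a, and none was called. Vps72 also fell, and it is a member by name alone, as its protein is a histone chaperone subunit of chromatin remodelling complexes. It read 43.8, 51, 42.7 and 49.5 CPM in the WT and 41.2, 38.8, 34.2 and 31 CPM in the Mtm1KO libraries, a log2 fold change of -0.36 ± 0.10 (adjusted p = 0.023).

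No member was called in diaphragm, heart or liver, where edgeR called 0% of genes higher and 0.0119% lower in diaphragm, 0% and 0.00656% in heart, and 0% and 0% in liver. DESeq2 called 0 members in these tissues too, while it called 1.72% of genes higher and 0.675% lower in diaphragm, 0.102% and 0.359% in heart, and 0.0299% and 0.12% in liver. At an unadjusted p under 0.05, 4 of 64 members passed in diaphragm (10.8% of all genes), 5 of 63 in heart (8.88%) and 4 of 61 in liver (4.24%). Beside Snx31, the filter left out Vps37d in heart and Vps37d, Snx20 and Snx22 in liver. The common biological coefficient of variation between mice was 0.171 in gastrocnemius, 0.208 in heart, 0.229 in liver and 0.394 in diaphragm.

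In diaphragm, 8 members were higher and 1 lower with no overlap between the 4 WT and 3 Mtm1KO libraries, beside 5.39% and 4.57% of all genes. Vps37c and Vps26c, both called higher in gastrocnemius, had the smallest p-values here. Vps37c read 35.7, 38, 39.8 and 33 CPM in the WT and 52.7, 44.2 and 48.8 CPM in the Mtm1KO libraries, a log2 fold change of 0.41 ± 0.11 (adjusted p = 0.29). Vps26c read 27.8, 24.9, 27 and 29.7 CPM in the WT and 35.5, 31.6 and 37.8 CPM in the Mtm1KO libraries, a log2 fold change of 0.35 ± 0.10 (adjusted p = 0.32). Vps29 followed with 32.2, 30.9, 33.1 and 30.6 CPM in the WT and 36.7, 35.6 and 42.2 CPM in the Mtm1KO libraries and 0.27 ± 0.09 (adjusted p = 0.39), and Snx30 with 7.4, 6.14, 6.52 and 8.5 CPM in the WT and 9.27, 9.68 and 8.73 CPM in the Mtm1KO libraries and 0.37 ± 0.14 (adjusted p = 0.42). In each of these 4 genes the Mtm1KO libraries lay above the WT libraries without passing the adjusted threshold. Snx10 was spread widely within genotypes, at 22.8, 13.4, 6.0 and 17.5 CPM in the WT and 11, 22 and 9.79 CPM in the Mtm1KO libraries. In the same library order, albumin was at 26742, 16855, 284 and 19826 CPM in WT and 1816, 31876 and 583 CPM in Mtm1KO, so the 4 libraries with the most albumin held the 4 highest Snx10 values, and the part of liver RNA in them was not tested.

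Heart had 3 members higher and 1 lower without overlap, beside 2.1% and 2.16% of all genes. The higher ones were Vps39, Snx22, whose opposite-strand overlap is given above, and Snx19, and the lower one was Snx1. Vps8, the CORVET subunit, had the smallest unadjusted p of 0.026. It read 36.4, 36, 31.5 and 27.7 CPM in the WT and 39.8, 35.1, 41.7 and 42.6 CPM in the Mtm1KO libraries, with overlap and a log2 fold change of 0.27 ± 0.10 (adjusted p = 0.55). Vps26c had 0.18 ± 0.07 (adjusted p = 0.55), Vps51 -0.28 ± 0.12 (adjusted p = 0.55), Snx21 -0.27 ± 0.11 (adjusted p = 0.55) and Snx7 -0.33 ± 0.15 (adjusted p = 0.55) in heart. Liver had 1 member higher, Snx2, and 1 lower, Vps51, without overlap, beside 2.62% and 3.47% of all genes. Snx2 read 27.4, 34.4 and 31.7 CPM in the WT and 36.7, 41.4, 38.3 and 39.4 CPM in the Mtm1KO libraries, with a log2 fold change of 0.32 ± 0.11 (adjusted p = 0.97). Vps51 read 14.3, 12.7 and 13 CPM in the WT and 11.3, 11.3, 11.4 and 11.4 CPM in the Mtm1KO libraries, a log2 fold change of -0.23 ± 0.10 (adjusted p = 0.97), and 18% of its exon length is shared with Tm7sf2 and Gm28374. Snx29 read 9.25, 7.45 and 4.51 CPM in the WT and 5.82, 1.34, 1.65 and 4.0 CPM in the Mtm1KO libraries, and its log2 fold change of -1.14 ± 0.49 (adjusted p = 0.97) was the largest of any member in liver but came with overlapping libraries. Vps9d1 had -0.34 ± 0.15 (adjusted p = 0.97).

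**Figure D3:**
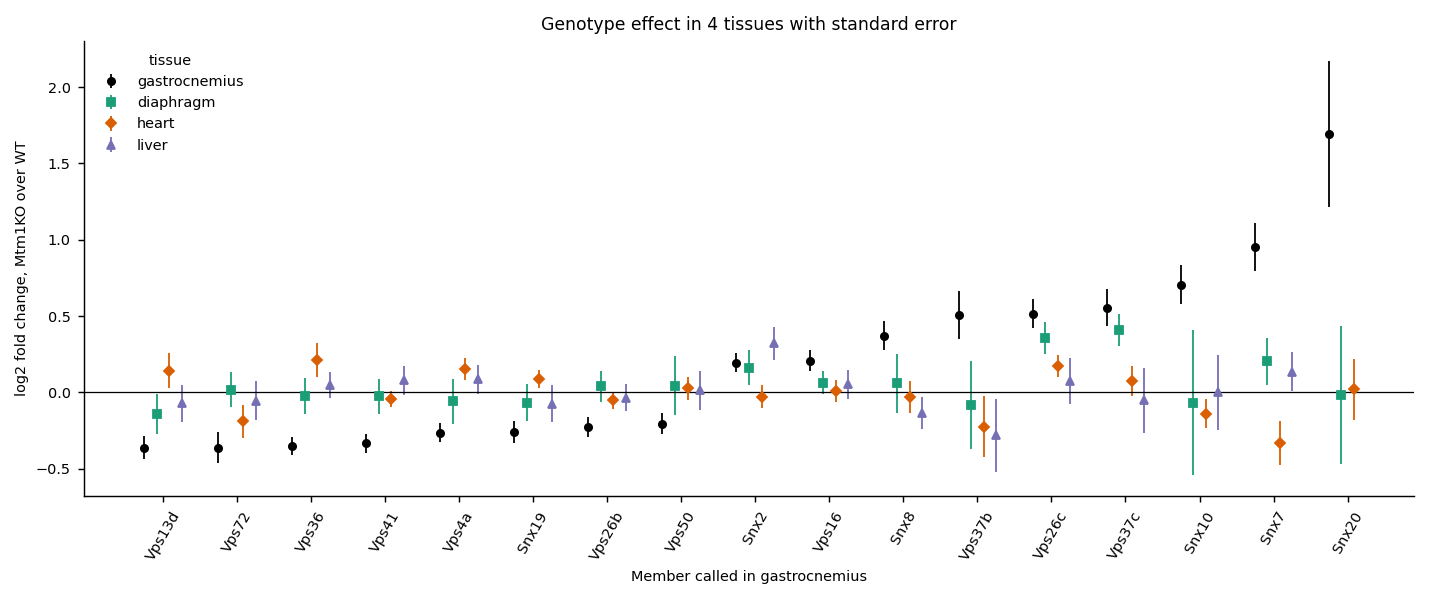
Log2 fold change of Mtm1KO over WT with its standard error (vertical axis) for the 17 members called in gastrocnemius, in gastrocnemius (circles), diaphragm (squares), heart (diamonds) and liver (triangles). The gastrocnemius points chose the genes; in the other 3 tissues most points lie within 0.4 of 0, and Vps26c and Vps37c lie above 0 in diaphragm. Snx20 has no liver point.

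The genotype effect in heart was set against that in gastrocnemius as a single contrast, since both tissues had 4 libraries of each genotype. It was higher in heart for 6 members and lower for 4, beside 9.94% and 9.89% of all genes, and the members' shares were 9.38% and 6.25%. Snx7 differed most clearly, by -1.27 ± 0.21 (adjusted p = 0.0011) on the log2 scale. In heart it read 8.06, 6.27, 6.65 and 9.5 CPM in the WT and 5.71, 6.36, 6.12 and 6.02 CPM in the Mtm1KO libraries, so that only 1 Mtm1KO library, and by little, exceeded the lowest WT library. Snx10 differed by -0.83 ± 0.15 (adjusted p = 0.0022), with 8.54, 8.49, 7.7 and 9.31 CPM in the WT and 7.81, 7.67, 7.73 and 7.68 CPM in the Mtm1KO libraries in heart. Snx20 differed by -1.66 ± 0.51 (adjusted p = 0.033) and Vps51 by -0.50 ± 0.16 (adjusted p = 0.039). The members with a higher effect in heart were Vps4a (0.43 ± 0.10, adjusted p = 0.0068), Vps36 (0.58 ± 0.13, adjusted p = 0.007), Snx19 (0.37 ± 0.09, adjusted p = 0.013), Vps41 (0.31 ± 0.08, adjusted p = 0.016), Vps13d (0.52 ± 0.14, adjusted p = 0.019) and Vps13b (0.32 ± 0.11, adjusted p = 0.046). Vps36 in heart read 44.1, 47.1, 46.7 and 34.9 CPM in the WT and 50.6, 43.4, 52.6 and 53.6 CPM in the Mtm1KO libraries, where WT replicate 4 was the lowest. Vps4a in heart read 68.2, 69.6, 69.1 and 59.3 CPM in the WT and 76.8, 68.7, 75.7 and 74.6 CPM in the Mtm1KO libraries, again with WT replicate 4 lowest, and Vps13d read 126, 139.6, 126 and 94.5 CPM in the WT and 126, 139.8, 133 and 136 CPM in the Mtm1KO libraries. That library stood apart from the other WT heart libraries. The chi-square per degree of freedom was 133 to 216.5 against each of them and 15.8 to 31.2 among the other 3. Without that library, the genotype effect was higher in heart than in gastrocnemius for 5 members and lower for 5. Levels of cell type markers stand beside these differences. The macrophage sum was 394 to 526 CPM in WT and 410 to 455 CPM in Mtm1KO heart. Of the 7 white adipocyte markers, 6 rose in Mtm1KO gastrocnemius, and in Mtm1KO heart edgeR called 0 and DESeq2 called 6 lower (median log2 fold change -2.68, summed level 491 to 642 CPM in WT and 477 to 604 CPM in Mtm1KO). The heart sums overlapped although most of these markers fell, so the sum does not describe most of the list. The 6 markers listed for cardiomyocytes (Myh6, Nppa, Tnni3, Tnnt2, Myl7 and Myl4) had a median of -1.23 in heart, with 0 called by either tool. Nppa, Myl7 and Myl4 are mainly atrial genes, so this median does not measure cardiomyocytes as a whole. Their sums overlapped, at 35684 to 66218 CPM in WT and 33696 to 45624 CPM in Mtm1KO. The part of these cells, or of atrial tissue, in the differences was not tested.

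Snx7, Snx10, Vps4a, Vps36, Snx19, Vps41 and Vps13d kept their call without any 1 of the 16 libraries. The count of members with a lower genotype effect in heart was 7 without Mtm1KO heart replicate 2. That count was 2 without WT gastrocnemius replicate 1 or 2, Mtm1KO gastrocnemius replicate 1 or Mtm1KO heart replicate 4. DESeq2 found a higher genotype effect in heart for 14 members. The call was lost in 8 of the 16 refits for Snx20, 11 for Vps51 and 14 for Vps13b. With library totals the counts were 0 higher and 37 lower, and Snx19 and Vps41 turned sign.

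Levels across the WT tissues placed these genes in context. Per length, Snx3 was the most abundant member in WT gastrocnemius at 77.2 ± 5.76 reads per kilobase of exon on the CPM scale (RPKM, mean ± SD, n = 4). Vps4a followed at 33.4 ± 2.07 RPKM, Vps28, an ESCRT-I subunit, at 24.9 ± 1.1, and Vps26a at 18.4 ± 1.22. Vps35 stood at 11.4 ± 0.25 and Vps26b at 10.8 ± 0.425 RPKM. The length joins all annotated exons of a gene: 2304 bases for Vps28, 2860 for Vps26a, 8899 for Vps35 and 5099 for Vps26b. In CPM these 4 genes read 57.4, 52.6, 101 and 55.1, another order, so the RPKM values do not rank the subunits. Snx17 stood at 16 ± 1.09, Snx5 at 16.7 ± 1.13, Vps33a at 12.7 ± 0.156, Vps52 at 13.5 ± 0.531, Vps72 at 14.1 ± 1.31 and Snx9 at 8.49 ± 0.401 RPKM. Of the members that rose in Mtm1KO, Snx7 was at 0.442 ± 0.0843 and Snx10 at 0.443 ± 0.0428 RPKM.

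Levels were then scaled over the 15 WT libraries. The highest tissue mean was a median of 1.63 times the lowest over 64 members, over 2 times for 18 of them and under 1.5 times for 19. Vps35 was the most even, at 101 ± 2.23 CPM in gastrocnemius, 97.5 ± 8.38 in diaphragm, 108 ± 8.25 in heart and 104 ± 4.72 in liver. Against WT gastrocnemius, calling members whose adjusted p was below 0.05 and whose level differed by more than 1 on the log2 scale, WT diaphragm had 3 members higher and 1 lower (18.8% and 7.95% of all genes). WT heart had 6 higher and 3 lower (17.7% and 14.3%), and WT liver 8 higher and 6 lower (25.7% and 31%). All 6 shares of the members were below those of all genes. With library totals, which moved the median of all genes by 0.50 in diaphragm, 0.56 in heart and 0.04 in liver, the counts were 6 and 0, 19 and 0, and 8 and 5. The 3 higher members in diaphragm were Snx20 (2.74 ± 0.43), Snx10 (1.63 ± 0.30) and Snx7 (1.19 ± 0.17). In replicate order, WT diaphragm read 19.6, 11.5, 4.99 and 15 CPM for Snx10 and 6.6, 7.05, 4.99 and 6.31 CPM for Snx7. Albumin was lowest in replicate 3, at 284 CPM, against 16855 to 26742 CPM in the others. The part of liver RNA in these differences was not tested. The single lower member in diaphragm was Vps72. That count was 0 without WT diaphragm replicate 1 or 3, and 2 without WT gastrocnemius replicate 1, 3 or 4 or WT diaphragm replicate 2.

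Liver was the tissue with the highest mean for 27 members. Snx10 reached 43.7 ± 9.26 CPM in WT liver against 4.12 ± 0.398 in WT gastrocnemius, a log2 difference of 3.41 ± 0.32 (adjusted p = 2.6e-07). Snx7 reached 17.2 ± 0.877 CPM in WT liver against 2.72 ± 0.518 in gastrocnemius, a difference of 2.65 ± 0.18 (adjusted p = 7.4e-09). Snx29 (1.32 ± 0.23, adjusted p = 0.00012), Snx33, a BAR-domain nexin with an SH3 domain (1.91 ± 0.21, adjusted p = 1.2e-06), Vps37b (1.63 ± 0.21, adjusted p = 6.2e-06), Snx30 (1.42 ± 0.21, adjusted p = 2.8e-05), Vps4b (1.37 ± 0.09, adjusted p = 3.9e-09) and Vps13b (1.29 ± 0.12, adjusted p = 1.5e-07) completed the members called higher in liver. The paralogues of the ESCRT ATPase lay in opposite order, with Vps4b at 70.2 ± 2.81 CPM in liver and 27.1 ± 1.17 in gastrocnemius, and Vps4a at 29.1 ± 1.28 in liver and 84.3 ± 5.22 in gastrocnemius. Vps4a differed by -1.53 ± 0.10 (adjusted p = 3.6e-09) between liver and gastrocnemius, and Vps72, Vps50, Snx17, Snx32 and Snx21 were also called lower in liver.

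Gastrocnemius had the highest mean for 22 members, counting Snx31, which rested on 2 counts in 1 library. Among the tested members Vps72, Vps50 and Vps37a lay furthest above the next tissue. Vps72 read 48, 56.3, 46.8 and 54.8 CPM in gastrocnemius and 22.5, 26.9, 23.1 and 23.8 CPM in diaphragm, and Vps50 read 41.1, 42.3, 47.5 and 43.5 and 25.4, 25, 31 and 22.6 CPM. In neither gene did the muscles overlap. Vps37a was at 90.6 ± 6.9 CPM in gastrocnemius and 58.7 ± 5.59 in liver, the next tissue. Heart had the highest mean for 10 members. Vps8 read 30.3, 30.1, 26.4 and 23.1 CPM in heart and 13.2, 13.4, 13.5 and 12.5 in gastrocnemius, a difference of 1.07 ± 0.09 (adjusted p = 2.4e-07), while Vps26a, at 76.8 ± 6.02 against 52.6 ± 3.49 CPM, differed by 0.55 ± 0.07 (adjusted p = 1.7e-05) and Vps26c by 0.77 ± 0.08 (adjusted p = 2.6e-06). Diaphragm had the highest mean for 6 members, among them Snx20, Snx22 and Vps13a. Snx20 was at 1.04 ± 0.394 CPM in diaphragm, 0.624 ± 0.0142 in heart and 0.15 ± 0.106 in gastrocnemius. Diaphragm and gastrocnemius differed by 2.74 ± 0.43 (adjusted p = 0.00011). Scaled within each tissue, macrophage markers summed to 384 to 864 CPM in WT diaphragm, 394 to 526 in WT heart and 54.2 to 93.7 in WT gastrocnemius. The part of macrophages in the Snx20 levels was not tested.

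**Figure D4:**
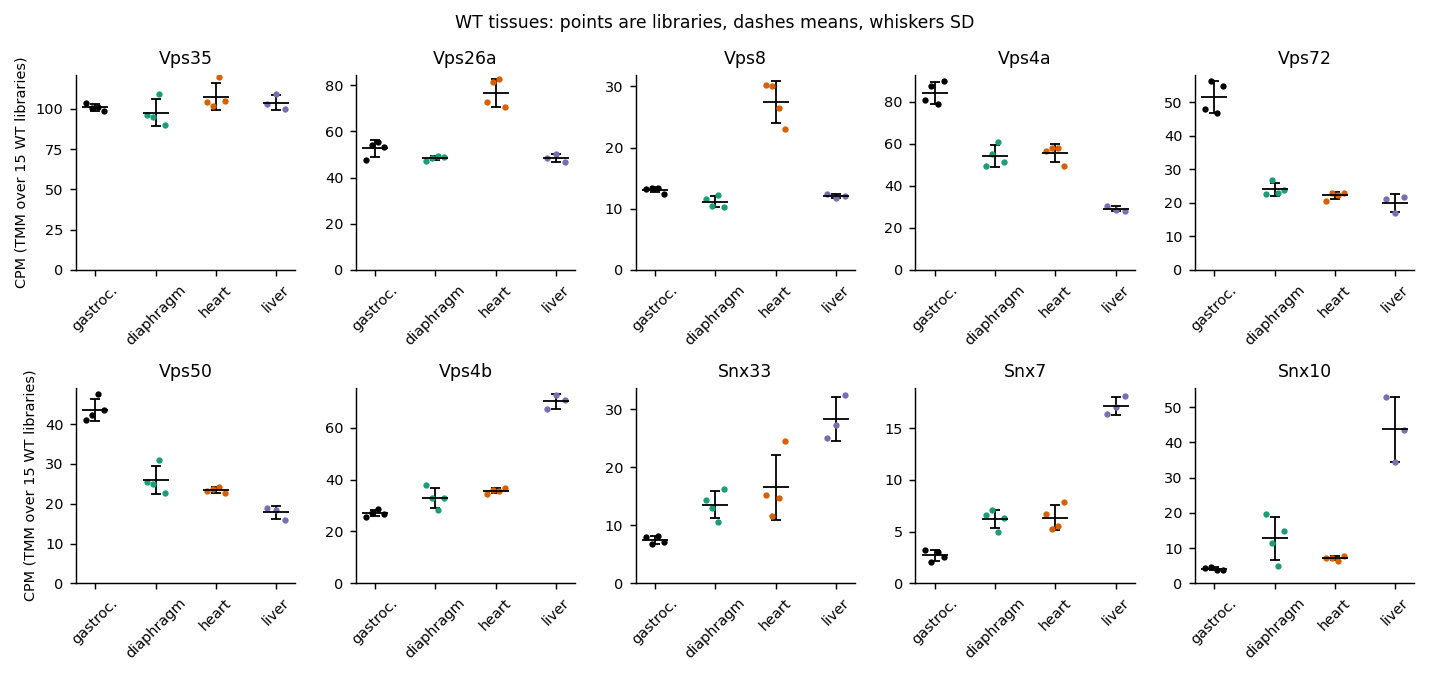
TMM-scaled CPM over the 15 WT libraries (vertical axes, each from 0) for 10 members in gastrocnemius, diaphragm, heart and liver; points are libraries, dashes means and whiskers the SD. Vps35 is level across tissues, Vps26a and Vps8 are highest in heart, Vps4a, Vps72 and Vps50 in gastrocnemius, and Vps4b, Snx33, Snx7 and Snx10 in liver.

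The WT tissue contrasts and the gastrocnemius genotype effect share the 4 WT gastrocnemius libraries, so they are not independent and are only set side by side. Snx7 had a log2 difference of 0.95 ± 0.16 in Mtm1KO gastrocnemius and 1.22 in WT heart over WT gastrocnemius. For Snx10 these log2 values were 0.71 ± 0.13 and 0.79, for Vps26c 0.52 ± 0.10 and 0.77, and for Vps37c 0.56 ± 0.12 and -0.53. For Vps36 they were -0.35 ± 0.06 and -0.80, and for Vps4a -0.26 ± 0.06 and -0.60. For Vps41 they were -0.33 and -0.48, and for Vps13d -0.36 ± 0.08 and 0.42. These are the 8 members called in gastrocnemius whichever library was left out, and the other called members are not compared here.

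Genes that work with the members were counted from 4 lists. Of 20 ESCRT partners tested in gastrocnemius, 6 rose and 2 fell in Mtm1KO (14.1% and 14.9% of all genes), with a median log2 fold change of 0.10 beside 0.02 over all genes. Mvb12b, an ESCRT-I subunit that Vps37 proteins assemble with, went from 72.3 ± 1.74 to 48.9 ± 0.596 CPM, a log2 change of -0.56 ± 0.05 (adjusted p = 0.00016). Ubap1, another ESCRT-I subunit, went from 56.5 ± 2.03 to 44.8 ± 1.63 CPM, a log2 change of -0.33 ± 0.06 (adjusted p = 0.0025). Pdcd6ip, which encodes the ESCRT adaptor ALIX, went from 64.9 ± 1.2 to 78 ± 3.43 CPM, a log2 change of 0.27 ± 0.06 (adjusted p = 0.0064). None of the 16 WASH and CCC genes tested, which act beside retromer and retriever, was called in gastrocnemius by edgeR or by DESeq2. Among 12 genes of early endosome tethering and of the kinase that makes the D3-phosphorylated lipid, 2 rose and 4 fell by edgeR, and 1 and 4 by DESeq2, beside the same shares of all genes. Of the 2 that rose, Vipas39, the partner of Vps33b, had a log2 change of 0.31 (adjusted p = 0.023) and Rab5a 0.29 (adjusted p = 0.049). The examples that follow had the smallest p-values. Rab7, the GTPase that recruits retromer and HOPS, went from 185 ± 15.6 to 129.5 ± 7.98 CPM, a log2 change of -0.51 ± 0.08 (adjusted p = 0.0013), Rab5b from 57 ± 1.78 to 44.5 ± 2.98 CPM, a log2 change of -0.35 ± 0.06 (adjusted p = 0.0031), and Rbsn, an effector of Rab5, from 32.6 ± 1.76 to 25.6 ± 2.03 CPM, a log2 change of -0.34 ± 0.08 (adjusted p = 0.009). Of 15 cargo receptors, 6 rose and 2 fell, again beside 14.1% and 14.9% of all genes. Slc2a4, the insulin-responsive glucose transporter, went from 739.6 ± 48.5 to 475 ± 65.8 CPM, a log2 change of -0.64 ± 0.10 (adjusted p = 0.0017), the integrin subunit Itgb1, a Snx17 cargo, from 311 ± 22.4 to 437 ± 43.4 CPM, a log2 change of 0.49 ± 0.09 (adjusted p = 0.0029), and Itga5 from 26.6 ± 4.54 to 50.6 ± 11 CPM, a log2 change of 0.93 ± 0.17 (adjusted p = 0.0031). On these 4 lists edgeR called 0 genes in diaphragm, heart and liver, and DESeq2 called 1 cargo receptor higher in diaphragm.

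Promoters were searched for the letters CACGTG, the core of the element bound by the lysosomal and autophagy regulators TFEB and TFE3, which many lysosomal genes carry. RefSeq promoter entries of 300 bases, 250 before and 50 after the gene's start (GRCm38.p6), existed for 43 of the 65 members. These members had 53 entries, and a gene counted when any of its entries held the letters. Of the 53 entries, 45 matched the start of a GENCODE transcript of the gene on the same strand. CACGTG, which reads the same on both strands, occurred in 7 of the 43 members (16.3%) and in 8.09% of 27025 genes with an entry. The 7 were Snx18, Snx5, Snx8, Vps16, Vps26a, Vps33a and Vps50. Of the members that rose in gastrocnemius 2 of 6 with an entry held it, and of those that fell 1 of 7. The letters CCAAT, on either strand, occurred in 14 of the 43 members (32.6%) and in 41.1% of all genes, and TGACGTCA occurred in 0 members and 2.03% of genes. The 120 bases before the start are shown for Vps16 and Snx8, which rose and hold CACGTG (capitals), for Vps33a, the HOPS partner of Vps16 that holds it 2 times and was not called, and for Snx7, which rose most clearly and holds none.
Vps16, chr2:130424200-130424319, plus strand: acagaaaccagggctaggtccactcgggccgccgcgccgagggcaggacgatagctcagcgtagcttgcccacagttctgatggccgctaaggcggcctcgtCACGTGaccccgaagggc
Snx8, chr5:140389309-140389428, minus strand: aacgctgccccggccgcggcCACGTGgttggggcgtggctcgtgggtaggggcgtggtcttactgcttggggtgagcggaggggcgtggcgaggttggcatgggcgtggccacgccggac
Vps33a, chr5:123573016-123573135, minus strand: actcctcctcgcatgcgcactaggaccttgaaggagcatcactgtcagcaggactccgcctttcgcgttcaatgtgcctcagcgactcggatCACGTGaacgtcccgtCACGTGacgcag
Snx7, chr3:117868937-117869056, minus strand: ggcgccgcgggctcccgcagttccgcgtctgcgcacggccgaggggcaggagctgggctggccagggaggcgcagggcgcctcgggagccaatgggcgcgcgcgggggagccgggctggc
By the start in each entry, the match starts 18 bases before it for Vps16 and 100 bases before it for Snx8. For Vps33a the matches start 28 and 12 bases before it. These matches describe the sequence only.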

How the data were processed

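Per the labels and the study's methods, whole tissues of 5-week-old mice gave 30 single-end libraries (TruSeq Stranded mRNA). The authors trimmed reads with cutadapt 1.10, mapped them with STAR 2.5.3a (build mm10) and took per-gene totals from htseq-count 0.6.1p1 in union mode on Ensembl annotation, discarding reads of more than 1 gene; the deposited values are these raw counts. Symbols were matched to all 36103 Ensembl identifiers, and exon lengths and overlaps came from GENCODE M21. In R 4.3.3, genes were filtered per tissue (filterByExpr, minimum count 10), scaled by TMM and tested with edgeR 4.0.16 (quasi-likelihood, Benjamini-Hochberg adjustment over all genes tested), with DESeq2 1.42.0 as an alternative. Standard errors are the log2 fold change over the square root of F. Albumin CPM values divide by library totals without TMM factors. All other CPM values are TMM-scaled within a tissue, or over the 15 WT libraries for WT contrasts. RPKM divides them by the joined length of all annotated exons of a gene. Contrasts were tested on simulated data. The members, their roles and the lists were chosen with earlier results of these data known. Named members were those called, the leading member of each role by level or by p in each tissue, a fixed list of core subunits, the 3 most specific to each WT tissue, and the 8 with the smallest p between heart and gastrocnemius. Replicate numbers were not taken to pair the mice, as same-number correlations of deviations were not all over 0.1 in any comparison. That rule cannot exclude pairing. With WT gastrocnemius, same-number correlations were 0.0342 to 0.223 in WT heart (other pairs -0.165 to 0.082). They were -0.00969 to 0.273 in WT diaphragm (-0.193 to 0.103) and -0.025 to 0.0709 in WT liver (-0.0728 to 0.0954). The main contrasts across tissues took all libraries as independent, so tissues that may share a mouse were not paired.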

Additional observations from a re-analysis of the deposited data

Results flagged for a closer look

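Of 65 sets of 4 library values given for members, 3 held a value far from the other 3 by Dixon's test, which chance alone does in about 1 set in 20. Vps37c was at 60.2 CPM in Mtm1KO gastrocnemius replicate 1, above its group. Vps4a was at 60.8 CPM in Mtm1KO gastrocnemius replicate 3 and at 59.3 CPM in WT heart replicate 4, in each case the lowest of its group. Vps37c and Vps4a were called in gastrocnemius without any 1 of its libraries.

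The genotype effect differed between heart and gastrocnemius for 10 members (edgeR quasi-likelihood test of the difference, heart minus gastrocnemius, log2). The difference was -1.27 for Snx7, -0.83 for Snx10, -1.66 for Snx20 and -0.50 for Vps51. It was 0.58 for Vps36, 0.52 for Vps13d, 0.43 for Vps4a, 0.37 for Snx19, 0.32 for Vps13b and 0.31 for Vps41. The call was lost in 8 of 16 refits that left out 1 library for Snx20, 11 for Vps51 and 14 for Vps13b. Values of the macrophage, white adipocyte and cardiomyocyte markers are given above, and their part in the difference was not tested.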

How the results depend on the processing

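The main counts in gastrocnemius were 9 members higher and 8 lower. They ranged from 4 to 8 and from 4 to 7 when each library was left out. Without the low-count filter 5 were higher, an added fold threshold left 1 higher and 0 lower, and library totals without TMM factors, an alternative chosen after seeing the data, gave 45 higher and 0 lower. With library totals Vps41 (0.0062), Vps4a (0.075), Snx19 (0.073), Vps26b (0.11) and Vps50 (0.13) turned sign in gastrocnemius, and Snx19 (-0.042) and Vps41 (-0.10) did in the heart minus gastrocnemius contrast. This follows from the construction, which drops the factor set by the typical gene. Counts in diaphragm, heart and liver were 0 under every alternative run. For heart minus gastrocnemius, the 6 higher members became 14 by DESeq2, 3 in a fit of all 30 libraries and 0 with library totals. The 4 lower members became 2 without the filter, 1 in the fit of all 30 libraries, 37 with library totals and 2 with the replicate block, and ranged from 2 to 7 with libraries left out. For WT tissues, the adjusted p alone gave 12 higher and 25 lower in diaphragm (3 and 1), 21 and 22 in heart (6 and 3), and 29 and 24 in liver (8 and 6). In diaphragm the 1 lower member became 2 with DESeq2 size factors and with DESeq2, and 0 to 2 with libraries left out. Library totals gave 6 and 0 in diaphragm and 19 and 0 in heart. The replicate number as a block called 13 members in gastrocnemius in place of 17. The cause of the other shifts was not tested.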
